A study of Mus musculus with 4 samples.

Results

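The genes described here encode MHC class II antigen presentation and its master regulator. They are Ciita, the class II transactivator, Cd74, the invariant chain, H2-Aa, H2-Ab1 and H2-Eb1, chains of the classical class II molecules, H2-DMa, H2-DMb1 and H2-DMb2, chains of the peptide editor H2-DM, and H2-Oa and H2-Ob, chains of its inhibitor H2-O. Members were all probe sets annotated to 1 of these 10 genes and to no other gene. This gave 19 probe sets of 9 genes, among 34958 probe sets of 18194 genes. H2-DMb1 had only probe sets that also name H2-DMb2, so it has no value here, and H2-Ob had 1 probe set of its own beside 1 that it shares with another gene. The cells, labelled macrophages, were raised from mouse marrow in M-CSF, the macrophage growth factor, over 5 days. The 4 groups were Jmjd3-/- (knockout) cells given lipopolysaccharide (LPS), a cell wall component of Gram-negative bacteria, at 100 ng/ml for 4 h, unstimulated Jmjd3-/- cells, wild-type cells given the same LPS, and unstimulated wild-type cells. Jmjd3, encoded by Kdm6b, removes a repressive methyl mark from histone H3. Each group was 1 Affymetrix array. The mouse strain, age and number of animals, any pooling and the deleted part of Kdm6b are not stated in what was used here.

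Class II molecules carry peptides from the endosomes to the cell surface, where CD4 T cells read them. The invariant chain fills the peptide groove during transport, H2-DM helps to exchange its last fragment for other peptides, and H2-O restrains H2-DM. Ciita does not bind DNA itself: it is recruited by the RFX complex, CREB family factors and NF-Y, which sit on the X and Y boxes of class II promoters, and in macrophages interferon gamma is its best known inducer.

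Levels are log2 RMA probe set intensities, and differences are on that log2 scale. A reading of log2 6 was taken as the floor below which a size rests on background. The arrays were alike in overall level, with medians of 4.15 to 4.24 and 32.1% to 34.5% of probe sets at or above the floor. Kdm6b, the targeted gene, read 10.82 with LPS and 9.82 unstimulated in knockout cells, against 11.23 with LPS and 10.33 unstimulated in wild-type cells on its brightest probe set, which does not settle the genotype labels without knowledge of the deleted part. Its second probe set read 6.07 and 5.35 in knockout cells, against 5.22 and 4.71 in wild-type cells, and its dimmest was under the floor on all arrays. All 12 measured macrophage markers reached the floor on every array, with summed linear intensities of 56558 and 58508 in knockout and 52997 and 52378 in wild-type cells (with LPS and unstimulated in each pair). These sums are led by the brightest genes. Of the 12, Itgam, which encodes CD11b, fell in the knockout (-1.04, limma adjusted p = 0.0385), Fcgr1, an Fc receptor gene, rose (0.76, adjusted p = 0.0324) and 10 did not pass. Other cells' markers moved with genotype. The granulocyte list summed to 34438 and 35568 in knockout and 3400.3 and 3430.2 in wild-type cells, and the stromal list to 18670 and 22951 against 736 and 564, in the same order. In the granulocyte list 9 of 10 genes rose and 1 fell, Mmp8 (-2.92, limma adjusted p = 0.00682), and in the stromal list 9 of 11 past the floor rose and none fell. Of all genes, 6.39% were called higher and 3.12% lower. Ngp, Ltf, Mpo, Elane, Prtn3, Col3a1, Postn, Pdgfra, Thbs2 and Mgp passed the floor only on the knockout arrays, where they were high. These counts are thus not evidence by themselves. The part of such cells in the results that follow was not tested.

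The class II genes lie together on mouse chromosome 17, from H2-Oa (34092379 to 34095234) to H2-Eb1 (34305867 to 34316674) in GRCm38.p6. Ciita is at 10480014 to 10531064 on chromosome 16. Promoter windows of 7 of the 10 genes were matched in RefSeq's table for GRCm38.p6, each running 250 bases before to 50 bases after an annotated start. Those of H2-Eb1, H2-DMb2 and H2-Aa are shown 5′ to 3′ on the gene's strand, because these genes differed strongly between genotypes and represent the classical and the editing chains. The H2-DMb2 window surrounds an annotated start that lies inside the gene's span. Capitals mark GATTGG, the Y box core that holds the NF-Y sequence, and ATGATG, letters that fall in the X box, on either strand.
H2-Eb1, chr17:34305617-34305916, plus strand: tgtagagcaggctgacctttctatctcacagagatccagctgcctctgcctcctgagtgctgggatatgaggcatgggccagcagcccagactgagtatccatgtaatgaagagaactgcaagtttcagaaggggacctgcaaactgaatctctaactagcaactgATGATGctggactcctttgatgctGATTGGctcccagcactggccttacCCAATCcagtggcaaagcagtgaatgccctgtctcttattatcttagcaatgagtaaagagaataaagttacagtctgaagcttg
H2-DMb2, chr17:34144999-34145298, plus strand: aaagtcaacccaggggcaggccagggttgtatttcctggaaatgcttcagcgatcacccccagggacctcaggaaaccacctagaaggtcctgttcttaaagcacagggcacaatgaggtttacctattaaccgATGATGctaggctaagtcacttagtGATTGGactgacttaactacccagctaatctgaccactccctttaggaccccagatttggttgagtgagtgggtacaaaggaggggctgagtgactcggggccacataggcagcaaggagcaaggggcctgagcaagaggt
H2-Aa, chr17:34287774-34288073, minus strand: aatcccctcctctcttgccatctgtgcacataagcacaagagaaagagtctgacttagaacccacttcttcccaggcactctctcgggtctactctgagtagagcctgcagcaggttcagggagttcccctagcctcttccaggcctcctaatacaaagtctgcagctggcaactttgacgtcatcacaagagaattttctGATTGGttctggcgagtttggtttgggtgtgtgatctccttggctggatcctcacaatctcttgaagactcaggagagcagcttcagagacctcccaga
GATTGG starts 60 bases before the annotated start of H2-Eb1, 91 before that of H2-DMb2 and 49 before that of H2-Aa. ATGATG precedes it, counted from first letter to first letter, by 24 bases in H2-Eb1 and by 25 bases in H2-DMb2, and is not in the H2-Aa window. Only these exact letters were searched, so their absence does not show that H2-Aa lacks an X box. Of the 8 windows of members, H2-DMa having 2, 7 hold GATTGG and 4 hold ATGATG, searched on both strands. Both H2-DMa windows surround annotated starts inside the gene's span. The GATTGG found in 1 of them starts 199 bases before its annotated start. The shares among all 32851 windows of 300 bases are 16.1% for GATTGG and 11.2% for ATGATG. Both letter strings were chosen after these windows had been read. ATGATG followed by GATTGG on the gene's strand, at the 22 to 25 bases seen in the members, occurs in 4 of the 32851 windows, those of H2-Eb1, H2-DMb1, H2-DMb2 and H2-Ob. These matches describe sequence and are not measured binding sites.

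The comparison of genotypes asks how class II genes depend on Jmjd3. In Jmjd3 knockout cells the classical chains, the invariant chain, H2-DMa, H2-DMb2, H2-Oa and Ciita were all lower than in wild type, in both states. The classical chains H2-Eb1, H2-Aa and H2-Ab1 were lower by 5.58-fold to 7.59-fold, while Cd74 was lower by 2.98-fold with LPS and 2.41-fold without. Across all 9 measured members the median difference was -2.48 with LPS and -2.20 without, beside 0.04 and 0.07 over the genes past the floor. With 1 array a group these single differences have no replicate check. In bulk cultures, fewer cells of a type and less RNA per cell cannot be told apart.

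**Figure D1:**
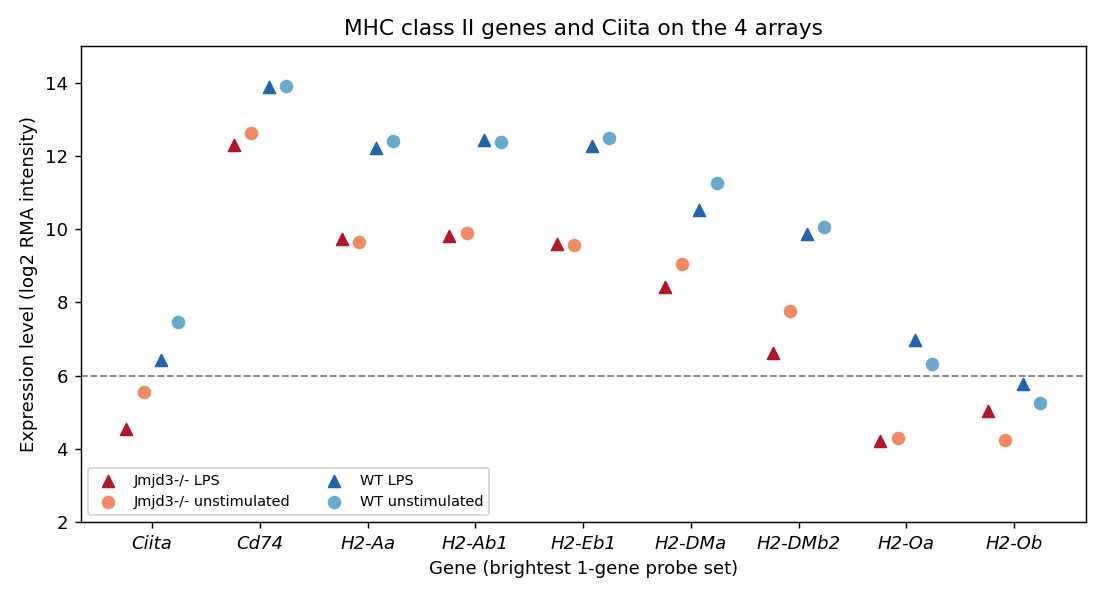
Log2 RMA level (y axis) of the brightest 1-gene probe set of each of 9 genes (x axis) on the 4 arrays, 1 point per array, with the floor of log2 6 dashed. Both knockout points lie below both wild-type points in every gene, a pattern whose share over all genes was not counted. H2-Ob is under the floor throughout. Heights of different genes cannot be compared, since probes differ.

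Ciita read 4.55 with LPS and 5.57 unstimulated in knockout cells, against 6.42 with LPS and 7.46 unstimulated in wild-type cells. Both knockout arrays were thus under the floor, and both wild-type arrays above it. The knockout minus wild type difference was -1.87 with LPS and -1.89 without. Over both states Ciita had a genotype effect of -1.88 ± 0.27 (standard error, 1 residual degree of freedom), which passed the test across all genes (limma, adjusted p = 0.0191). Its other 2 probe sets, under the floor on all 4 arrays, differed by -1.26 and -0.89 with LPS and by -1.99 and -2.05 unstimulated. With the mean of its 3 probe sets in place of the brightest, the value was -1.66 (limma, adjusted p = 0.0812). With 64 added to the linear values, which damps dim signals, it was -0.94 (limma, adjusted p = 0.0346).

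Among the classical chains, H2-Eb1, a beta chain gene, read 9.58 with LPS and 9.57 unstimulated in knockout cells, against 12.28 with LPS and 12.49 unstimulated in wild-type cells. H2-Aa, which encodes the alpha chain of I-A, read 9.74 and 9.64 in knockout cells, against 12.22 and 12.40 in wild-type cells (with LPS, then unstimulated). H2-Ab1, its beta chain partner, read 9.81 and 9.89 in knockout cells, against 12.42 and 12.39 in wild-type cells in the same order. All 4 readings of each of these 3 genes were far above the floor, and the gap between genotypes exceeded every gap between states. All of them fell in the knockout, H2-Eb1 with an effect of -2.81 ± 0.15 (SE; limma, adjusted p = 0.00181), H2-Aa with -2.62 ± 0.16 (adjusted p = 0.00209) and H2-Ab1 with -2.56 ± 0.14 (adjusted p = 0.00183).

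Cd74, the invariant chain gene on chromosome 18 (60803849 to 60812652), had the smallest difference among the members above the floor on all arrays. It read 12.31 with LPS and 12.63 unstimulated in knockout cells, against 13.88 and 13.90 in wild-type cells. Cd74 fell, with an effect of -1.42 ± 0.10 (SE; limma, adjusted p = 0.00299).

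Of the H2-DM genes, H2-DMa read 8.43 with LPS and 9.05 unstimulated in knockout cells, against 10.51 and 11.25 in wild-type cells. It fell, with an effect of -2.14 ± 0.18 (SE; limma, adjusted p = 0.00421). H2-DMb2 read 6.63 with LPS and 7.76 unstimulated in knockout cells, against 9.87 and 10.07 in wild-type cells, and fell, with an effect of -2.77 ± 0.28 (SE; limma, adjusted p = 0.00708). The lowest of these readings, knockout with LPS, lay just above the floor. H2-DMb1 and H2-DMb2 are close copies, so part of the H2-DMb2 signal may come from H2-DMb1 transcripts. That share was not tested.

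The H2-O genes lay near or under the floor. H2-Oa read 4.22 with LPS and 4.30 unstimulated in knockout cells, against 6.97 and 6.32 in wild-type cells. Like Ciita it reached the floor in wild-type cells only, and it fell, with an effect of -2.39 ± 0.37 (SE; limma, adjusted p = 0.025). With 64 added to the linear values the effect was -0.99 (limma, adjusted p = 0.0381). H2-Ob read 5.02 and 4.26 in knockout cells, against 5.77 and 5.25 in wild-type cells, under the floor on all 4, and was not in the test. H2-O is best known from B cells, and 6 of 9 measured B cell markers, Cd79a, Ms4a1, Pax5, Blk, Vpreb1 and Igll1, were under the floor on every array. Of the other 3, Cd22 fell (-1.21), Ebf1 rose (3.53) and Cd79b did not pass (1.98). The B cell list summed to 464 with LPS and 756 unstimulated in knockout cells, against 343 and 456 in wild-type cells. In knockout cells the sum was led by Ebf1, at 7.73 and 8.53, beside 4.42 and 4.78 in wild-type cells. In wild-type cells it was led by Cd22, at 7.78 and 8.36, beside 6.52 and 7.20 in knockout cells. The sum thus rests on few genes that differed in opposite directions.

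Of the 8 members past the floor, 8 fell in the knockout and none rose, against 3.12% of 9386 genes called lower and 6.39% called higher. Ciita and H2-Oa passed the floor only where they were high, so this count is not evidence by itself. With no floor, 8 of 9 members fell, H2-Ob being the exception (-0.87, limma adjusted p = 0.157), against 1.88% of 18194 genes. The test assumes additive effects of genotype and LPS. Fitted without the LPS term, only H2-Aa, H2-Ab1 and H2-Eb1 of the 8 passed, as 11 genes in all were then called lower in place of 293.

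**Figure D2:**
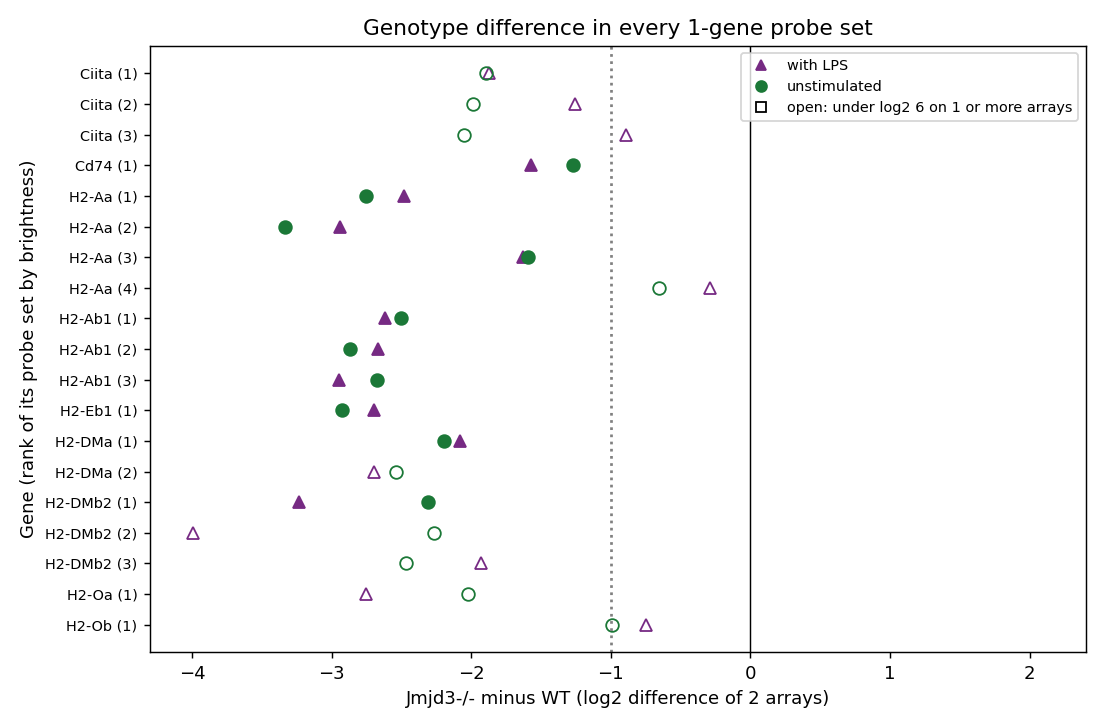
Knockout minus wild type log2 difference (x axis) of each of the 19 member probe sets (y axis, ranked by brightness within a gene), with LPS (triangles) and unstimulated (circles). All points lie below 0, from -3.99 to -0.29, and filled symbols mark the 10 probe sets at or above log2 6 on all 4 arrays, which lie between -3.33 and -1.27.

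Every one of the 19 probe sets read lower in the knockout in both states, 4 of them under the floor on all 4 arrays. Of all 18194 genes, 9090 read lower with LPS and 8979 unstimulated, and the share lower in both states was not counted. Probe sets of 1 gene are not independent. The size differed between probe sets of a gene. For H2-Aa the 3 probe sets past the floor differed by -2.48, -2.94 and -1.63 with LPS and by -2.75, -3.33 and -1.59 unstimulated. Among genes with several probe sets past the floor on either array compared, the typical (median) SD within a gene was 0.16 with LPS (3448 genes) and 0.19 without (3630 genes). The 3 H2-Ab1 probe sets were closer, from -2.61 to -2.95 with LPS and from -2.50 to -2.87 unstimulated. The second H2-DMa probe set, dimmer and above the floor in wild-type cells alone, differed by -2.69 with LPS and -2.54 unstimulated. Tested as 15534 separate probe sets, all 15 member probe sets past the floor fell, against 3.35% called lower and 5.67% called higher, with the H2-Aa probe sets at -2.62, -3.14 and -1.61 (limma, adjusted p = 0.00127, 0.00128 and 0.00774). Of the 15, 5 were above the floor on fewer than 4 arrays, so this count too is partly set by the floor. Many member probe sets are of classes (a, s and x) that can bind related transcripts. Among the genes past the floor, Ciita, Cd74 and the I-A chains rest on such classes alone.

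The class II genes stand between unrelated genes and genes of class I presentation on chromosome 17, so their neighbours give the genotype difference of the surrounding region. None of 18 neighbours past the floor was called between genotypes, when 3.12% of all genes were called lower and 6.39% higher. Their median was 0.04 and their range -0.61 to 1.99, beside -2.81 to -2.14 for the 6 class II genes among them. At an unadjusted p below 0.05 in limma, 1 of the 18 was lower and 2 were higher. Brd2, a chromatin reader gene that overlaps H2-DMa in the annotation, differed by -0.10 (limma, adjusted p = 0.763). Psmb9 and Psmb8, immunoproteasome subunits, and Tap1 and Tap2, the peptide transporter of class I, lie between H2-DMb1 and H2-Ab1. Over both states they differed by -0.61, -0.46, -0.42 and -0.33. In the same order they differed by -1.16, -0.91, -1.06 and -0.71 unstimulated, and by -0.05, -0.02, 0.21 and 0.06 with LPS. A p that misses the threshold does not show that values did not differ. Around Ciita, 1 of 8 neighbours past the floor was called, Emp2 (2.09, higher), and around Cd74 1 of 7, Pdgfrb (3.03, higher), which is also on the stromal list.

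**Figure D3:**
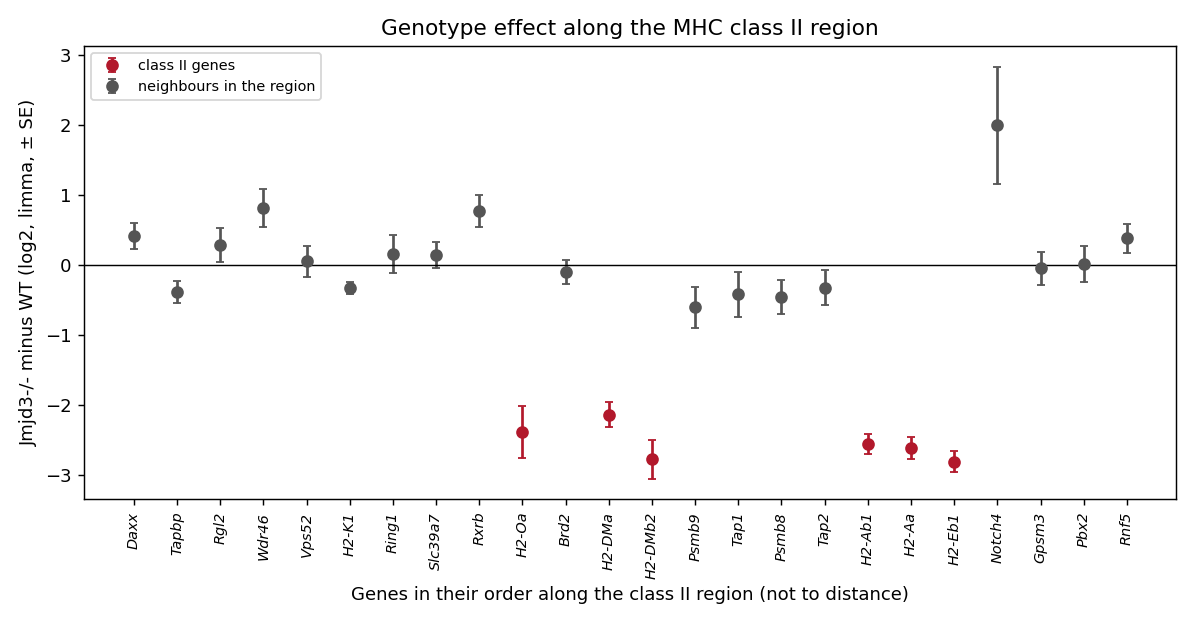
Genotype effect (y axis, knockout minus wild type, log2, limma, bars are the standard error) for 24 genes in their order along the class II region (x axis, not to distance). The 6 class II genes lie between -2.81 and -2.14 and the 18 neighbours between -0.61 and 1.99.

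The factors that bring Ciita to class II promoters did not pass between genotypes. Of 10 genes of the RFX complex, NF-Y, CREB and coactivators, all past the floor, none was called by limma, nor at an unadjusted p below 0.05, and the median was -0.04, with 0.05 over all genes tested. Of all genes, 3.12% were called lower and 6.39% higher, so none of 10 is close to those shares. Rfx5, an RFX subunit whose loss abolishes class II expression in humans, differed by -0.03 with LPS and -0.53 unstimulated, and by -0.28 over both (limma, adjusted p = 0.486). Rfxap, another RFX subunit, differed by -0.06 and Nfya, an NF-Y subunit, by 0.01. Levels of RNA were measured, not binding or activity.

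Among genes that act on Ciita, 2 of 15 fell in the knockout and none rose (median -0.23), beside 3.12% of all genes called lower and 6.39% called higher. Ifng, the interferon gamma gene, read 4.72 with LPS and 3.11 unstimulated in knockout cells, against 8.20 and 6.34 in wild-type cells. It was under the floor in both knockout cultures and above it in both wild-type ones, so it entered the test only where it was high, and its effect was -3.35 (limma, adjusted p = 0.00622). Irf4, a transcription factor gene, read 7.88 and 5.97 in knockout cells, against 9.58 and 9.85 in wild-type cells, with an effect of -2.79 (limma, adjusted p = 0.0416). The receptor genes Ifngr1 (0.36) and Ifngr2 (0.04), the kinase genes Jak1 (0.08) and Jak2 (-0.48), Irf1 (-0.80), and Spi1 (-0.28), which encodes the myeloid factor PU.1, did not pass. These values pool both states, which for some genes differed. Ifngr2 differed by -1.17 with LPS and 1.25 unstimulated, and Irf1 by 0.06 and -1.65, differences that have no replicate check.

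T and NK cells make interferon gamma. Of 7 measured markers of these cells, Cd3d, Cd3e and Cd3g reached the floor on both wild-type arrays and on neither knockout array. They thus passed the floor only where they were high. Cd4, Cd8a, Ncr1 and Cd5 were under the floor on every array. The list summed to 126 with LPS and 119 unstimulated in knockout cells, against 484 and 391 in wild-type cells. Dendritic cells are rich in class II, and 5 and 3 of 13 measured markers reached the floor in knockout cells, against 8 and 6 in wild-type cells (with LPS, then unstimulated). Their summed intensity was 8925 and 5508 in knockout cells, against 11429 and 6425 in wild-type cells. The brightest genes lead these sums, and they differed in opposite directions. Bst2 read 11.94 and 11.25 in knockout cells, against 11.50 and 9.98 in wild-type cells, and did not pass (0.85). In the same order Tcf4 read 11.77 and 10.90, against 10.84 and 9.29, and Itgax 9.98 and 9.90, against 12.35 and 12.04. Itgax, which encodes CD11c and is also made by macrophages, fell (-2.25), as did Ccr7 (-2.69) and Dpp4 (-1.31), whereas Tcf4 rose (1.27). Zbtb46 (-1.19), Btla (-1.21) and Batf3 (-1.47) did not pass. Flt3, Xcr1, Cd209a, Siglech and Itgae were under the floor on all 4 arrays. The part of these cells in the class II difference was not tested.

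**Figure D4:**
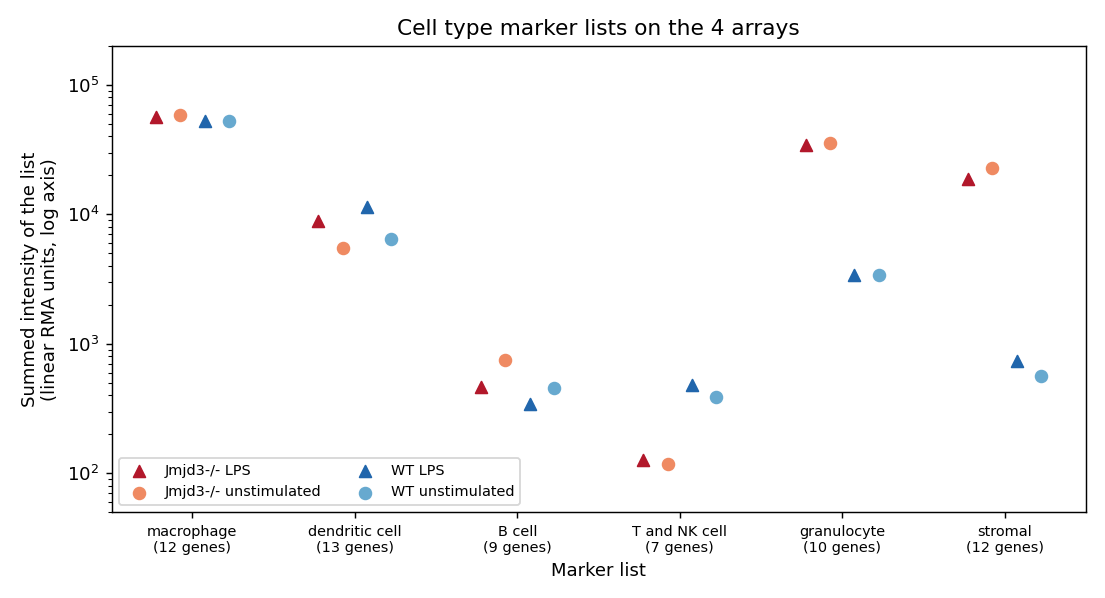
Summed linear RMA intensity (y axis, log scale) of 6 cell type marker lists (x axis) on the 4 arrays, 1 point per array. Macrophage sums are close on all arrays, from 52378 to 58508, while granulocyte and stromal sums are higher and T and NK sums lower on both knockout arrays.

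Further along the pathway most genes did not pass between genotypes. Of all genes, 3.12% were called lower and 6.39% higher, and in lists this short a count of none or 1 is close to those shares. Of 12 lysosomal processing genes 1 fell and none rose (median -0.15). It was Ifi30, whose product GILT reduces disulfide bonds of antigens and which, in human cells, is also induced by interferon gamma. Ifi30 read 12.08 with LPS and 12.85 unstimulated in knockout cells, against 13.03 and 13.42 in wild-type cells, with an effect of -0.76 (limma, adjusted p = 0.0261). Ctss, the cathepsin that trims the invariant chain, differed by -0.30 (limma, adjusted p = 0.072), and Lgmn, an asparaginyl protease gene, by 1.26 (limma, adjusted p = 0.0747). Of 7 trafficking and turnover genes 1 fell, Marchf1, the ubiquitin ligase that shortens the life of surface class II (-1.17; limma, adjusted p = 0.0232), and none rose (median -0.13). Of 13 class I presentation genes none was called between genotypes (median -0.39), Nlrc5, the class I transactivator and relative of Ciita, differing by -0.49 (limma, adjusted p = 0.422) and B2m by -0.15. By state, Nlrc5 differed by 0.14 with LPS and -1.11 unstimulated. At an unadjusted p below 0.05 in limma, 1 of the 13 was lower and none higher.

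The comparison of LPS with no LPS gave a different picture. The classical chains barely differed after 4 h, while Ciita and H2-DMa read lower with LPS in both genotypes. Over the 9 measured members the median LPS difference was -0.08 in knockout and -0.17 in wild-type cells, beside -0.26 and -0.19 over all genes past the floor. In the test 2 of 8 members fell and none rose, against 18.9% of 9386 genes called lower and 11.2% called higher, so the members' share is close to the background. With no floor 1 of 9 fell, H2-DMa, against 9.01% of genes. As separate probe sets, 2 of 15 fell, against 18.5% called lower and 12.7% called higher.

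Ciita differed with LPS by -1.02 in knockout and -1.04 in wild-type cells, and fell over both, with an effect of -1.03 ± 0.27 (SE; limma, adjusted p = 0.0447). This call was lost under 5 of the 6 alternatives that could be run for Ciita, with values of -1.03 to -0.42 and adjusted p of 0.0314 to 0.545, and both knockout readings were under the floor. Its other 2 probe sets, below the floor, differed by 0.15 and 0.57 in knockout cells and by -0.58 and -0.59 in wild-type cells. H2-DMa differed by -0.62 in knockout and -0.74 in wild-type cells and fell, with an effect of -0.68 ± 0.18 (SE; limma, adjusted p = 0.0446), a call lost under 2 of 8 alternatives.

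H2-Aa differed with LPS by 0.10 in knockout and -0.17 in wild-type cells, H2-Ab1 by -0.08 and 0.03, and H2-Eb1 by 0.01 and -0.22. Cd74 differed by -0.33 in knockout and -0.02 in wild-type cells. For these 4 genes the test gave values of -0.17 to -0.03 (limma, adjusted p = 0.246 to 0.892). H2-DMb2 differed by -1.13 in knockout and -0.20 in wild-type cells on its brightest probe set, a gap of -0.92 between the responses that 1 array a group cannot test. Its second probe set gave -1.84 and -0.12, with the knockout LPS reading just under the floor, and its dimmest 0.51 and -0.03, with both knockout readings under the floor. The probe sets of H2-DMb2 thus disagree on the LPS response of knockout cells and are alike in wild-type cells.

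**Figure D5:**
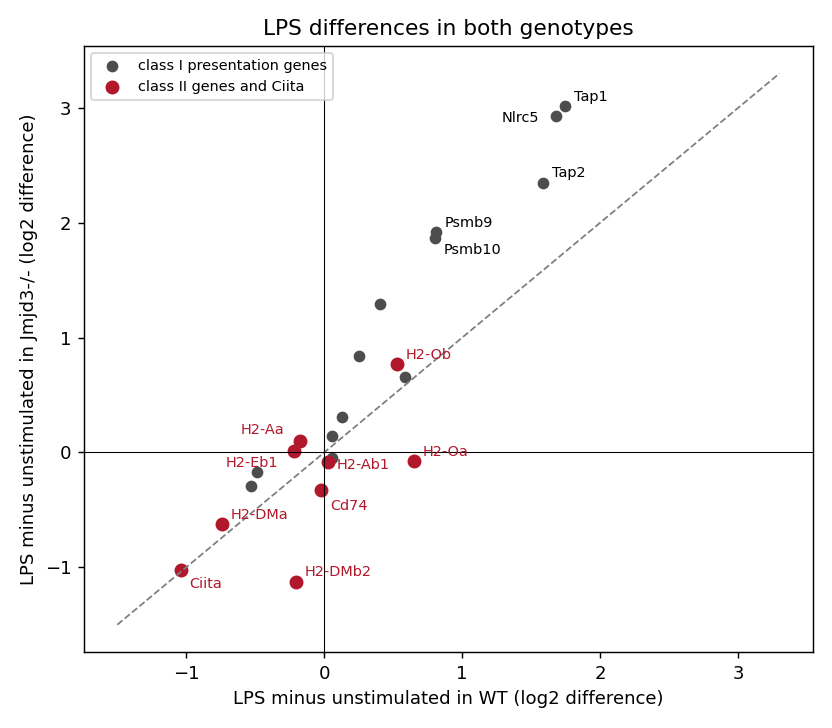
LPS minus unstimulated log2 difference in wild-type (x axis) and knockout cells (y axis) for the 9 measured genes, Ciita included (red), and 13 class I presentation genes (grey), with equality dashed. Class II genes lie between -1.13 and 0.77 in the knockout, while Tap1 and Nlrc5 lie at 3.02 and 2.93.

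Beside the 11.2% of all genes called higher with LPS and the 18.9% called lower, the other lists gave the following counts. Class I presentation genes rose in 5 of 13 cases and none fell (median 0.62), with Tap1 at 2.38, Nlrc5 at 2.30, Tap2 at 1.97, Psmb9 at 1.36 and Psmb10 at 1.33. Among genes that act on Ciita 6 of 15 rose and none fell (median 1.03), with Il10, an anti-inflammatory cytokine, at 5.69, Nfkbiz at 3.10, Jak2 at 2.15, Irf1 at 1.87 and Ifng at 1.74. Of promoter factors Rfx5 rose (0.90, limma adjusted p = 0.037) and the other 9 did not pass. Of lysosomal genes Ctsh (-0.71), Ifi30 (-0.58) and Ctsd (-0.42) fell, none rose and 9 did not pass, and no trafficking gene of 7 passed in limma (at an unadjusted p below 0.05, 1 lower and 1 higher). In the region around the class II genes 5 of 18 neighbours rose and 4 fell. Daxx (3.50), Tap1, Tap2, Psmb9 and Brd2 (1.16) had the largest effects among the genes called. Notch4, past the floor on 1 array, differed by -1.60 and was not called (limma, adjusted p = 0.2). Around Ciita, Snn rose (1.82) and Litaf fell (-0.46) of 8, and around Cd74 1 of 7 fell, Csf1r (-0.80), the M-CSF receptor.

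The LPS response of knockout cells minus that of wild-type cells was -0.92 to 0.27 over the 9 members (median 0.02), when 4.73% of genes past the floor differed by 2-fold or more downward and 5.19% upward. None of the 9 reached 2-fold on its brightest probe set, though the second H2-DMb2 probe set did (-1.72). With LPS, 2 of 9 members were 2-fold lower in knockout cells, Ciita and H2-DMb2, and 1, Ciita, in wild-type cells. The shares of genes were 15.5% lower in the knockout, and 14.3% lower and 9.86% higher in wild type. Between genotypes, 8 of 9 members were 2-fold or more lower in each state, H2-Ob being under it, against 5.65% of genes lower and 9.76% higher with LPS, and 5.74% lower and 9.54% higher without.

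The pattern of Ciita over the 4 arrays, centred on its mean, was compared with that of 9385 other genes by Euclidean distance, as a description. Nearest were Tmem198b (0.08), Atp6v0d2 (0.21), a proton pump subunit gene, Ptgr1 (0.21), Mvd (0.21), of the mevalonate pathway, and Mcf2l (0.27). Both knockout readings of Ciita were under the floor, so these distances are uncertain and no order among the class II genes is read from them. Nearest to H2-Aa were Qpct (0.20), H2-Ab1 (0.20), H2-Eb1 (0.20), Hook1 (0.24) and Bst1 (0.40). With 4 arrays such distances mostly restate the sizes of the genotype and LPS differences.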

How the data were processed

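Labelled cRNA was prepared from Trizol-extracted RNA by the NuGEN Ovation method for Affymetrix arrays, per the labels' protocols. The authors deposited log2 intensities per probe set, computed by RMA per the submitters' processing notes, whose version is unknown here. The arrays' sorted values were within 0.34 of each other. Of 45101 probe sets, 35890 were listed in the platform annotation, 34958 with 1 gene and 932 with several, and those with several were left out. Symbols were updated through gene identifiers to RefSeq of GRCm38.p6, matching 34754 probe sets. Each gene is its brightest 1-gene probe set by the mean of 4 arrays.

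An additive model of genotype and LPS was fitted to the 9386 genes at or above log2 6 on an array (15534 probe sets in the probe set fit) with limma 3.58.1 in R 4.3.3, with intensity trend, 1 residual and 3.84 prior degrees of freedom, and tested on simulated data. Calls have a Benjamini-Hochberg adjusted p below 0.05, and every adjusted p here is from this method. The words rose and fell are kept for calls. Differences of 2 arrays have no test. Alternatives were a floor of log2 8 or none, 64 added to linear values, quantile normalization, the mean of a gene's probe sets, plain-class probe sets, no trend, and leaving out the other factor. Nothing in the labels says that samples came from separate animals or cultures. With 1 array a group, no spread between replicates was measured, technical or biological. The 1 residual degree of freedom holds only the departure from additivity, that is, how far a gene's LPS effect depended on genotype. Standard errors and p-values rest on this departure, moderated across genes by limma. Array noise and a true dependence on genotype cannot be told apart in it, and either raises a gene's standard error. The number of arrays limits precision.

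Members and gene lists were chosen with earlier results of these data known. Genes named are all members, up to 5 list members with the largest effects among those called, examples from lists with few or no calls, and the 5 nearest to Ciita and to H2-Aa. Ctss, Lgmn, Rfx5, Nlrc5, Brd2, the B cell and dendritic cell markers and others that did not pass were named after their values were seen. Python 3.11.15 with numpy 2.4.6 and pandas 2.3.3 did the rest.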

Additional observations from a re-analysis of the deposited data

Results flagged for a closer look

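On 8 of the 15 member probe sets past the floor, of 5 genes, the LPS difference had opposite signs in knockout and wild-type cells. These differences were not tested, since each group is 1 array. The response of the knockout minus that of wild type was 0.27 and 0.39 on 2 H2-Aa probe sets and -0.04 on the third. It was -0.11 and -0.27 on 2 of the 3 H2-Ab1 probe sets, 0.23 for H2-Eb1, 0.54 on the dimmest H2-DMb2 probe set and -0.73 for H2-Oa. Among genes with several probe sets past the floor on either array compared, the typical (median) SD within a gene was 0.23 for the LPS difference in knockout (3688 genes) and 0.22 in wild-type cells (3564 genes). In H2-Oa the LPS difference was -0.08 in knockout cells, where it was under the floor, and 0.65 in wild-type cells.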

How the results depend on the processing

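No paired analysis was possible because each group has 1 array and the labels give no replicate numbers. Leaving out an array was not run, since 3 arrays leave the additive model no residual degree of freedom. All 58 alternative values of the 8 tested members for genotype stayed below 0, between -3.13 and -0.94, and 52 kept their side of the threshold. For LPS 51 of 58 did, and none reversed a call. Counts of members called lower between genotypes, 8 of 8, were 4 of 4 with plain-class probe sets (H2-Eb1, H2-DMa, H2-DMb2 and H2-Oa, the last past the floor in wild type only), where 194 of 7895 genes were lower, and 3 of 8 without the LPS term. For LPS the count of 2 of 8 became 1 of 6 with a floor of log2 8 and 1 of 4 with plain-class probe sets. Ciita was not in either of these fits, being under their floor. The count became 1 of 9 with no floor. It was 1 of 8 with 64 added to the linear values, quantile normalization, the mean of probe sets and no trend, and 0 of 8 without the genotype term. The cause of these other changes was not tested. Over all genes, 293 lower and 600 higher between genotypes became 163 and 298 with a floor of log2 8, 189 and 340 with the mean of probe sets, 194 lower with plain-class probe sets, and 11 and 100 without the LPS term. For LPS, 1770 lower and 1054 higher became 1166 lower with a floor of log2 8, and 84 and 183 without the genotype term. The members' median genotype difference moved to -1.90 with LPS when 64 was added, and to -2.41 unstimulated over the 6 genes past log2 8. Members 2-fold lower between genotypes were 5 of 6 in each state with plain-class probe sets. Members 2-fold lower with LPS in knockout cells were 2 of 9, with Ciita counted though under the floor there. They were 1 with a floor of log2 8, quantile normalization or plain-class probe sets, and 0 with 64 added or the mean of probe sets. In wild-type cells 1 of 9 became 0 under each of these 5. With 1 array a group and dim Ciita, H2-Oa and H2-Ob signals, small differences in these genes were not detectable.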
